A study of Mus musculus with 69 samples.

Results

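The 6 RNA-seq libraries of NOD macrophages, basal or treated for 24 hours with interleukin-4 (IL-4), were compared, 3 libraries for each condition, out of the 69 samples of the series. They were taken by their labels from the authors' expression table of 5 mouse strains, which holds 29 libraries, so that NOD makes up 6 of them and the 4 other strains 23. The cells were bone marrow–derived macrophages (BMDMs) of NOD/ShiLtJ mice, an inbred strain, grown from marrow of female mice for 7 days with M-CSF. One group was left untreated (basal) and the other received 20 ng/ml mouse recombinant IL-4 for 24 hours, and no engineered allele or second agent was present in either. C57BL/6J (C57), BALB/cJ (BALB), PWK/PhJ (PWK) and SPRET/EiJ (SPRET) BMDMs of the same table served only to show where NOD differed. The study calls its libraries biological replicates, but the labels do not say whether the 3 of a group came from separate mice. The p-values rest on the spread between libraries within groups, estimated over all 29 libraries of the 5 strains and not from NOD alone. The RNA came from whole cultures, in which fewer cells of a type and less RNA per cell cannot be told apart.

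IL-4 is a cytokine of type 2 immunity. It binds a receptor made of the IL-4 receptor alpha chain and the common gamma chain, and the attached Janus kinases phosphorylate STAT6, which enters the nucleus and binds DNA. In macrophages this leads to a program called alternative activation, with the arginase Arg1, the mannose receptor Mrc1 and other lectins as its usual readouts, and it restrains genes driven by NF-kB such as Il6 and Tnf. NOD mice develop autoimmune diabetes spontaneously and are known for unusual inflammatory behavior of their myeloid cells.

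Expression was given in TPM, a share of all transcripts in which read counts are divided by gene length. Differences are on the log2(TPM + 1) scale, from limma with adjusted p-values over the 11907 genes that reached 1 TPM in at least 2 of the 29 libraries. SE is the standard error of that difference. A gene was called induced or repressed beyond a 2-fold change at an adjusted p below 0.05. The NOD libraries held between 7.28 M and 14.25 M tags. All 12 macrophage markers examined were measured, led by the lysozyme gene Lyz2, with a sum between 19453 and 20452 TPM in basal and between 18862 and 20001 TPM in IL-4–treated libraries. Markers of other cells were low. The hemoglobin genes, Elane, Fcer1a, Epx, Ebf1 and Cd3d were at 0 in all 6 libraries, and the summed neutrophil markers went from between 55.8 and 69.5 TPM to between 46.3 and 50.4 TPM. The summed eosinophil, B cell, and T and NK cell markers stayed at or below 3.34 TPM, the stromal ones lay between 14.01 and 18.2 TPM, and those of the erythroid and megakaryocyte list, carried by Pf4, between 118 and 139 TPM. The mast cell and basophil markers went from between 2.52 and 3.22 TPM to between 5.49 and 6.67 TPM, mostly through Hdc, and the dendritic cell markers from between 5.43 and 8.05 TPM to between 8.93 and 12.2 TPM, led by Batf3. The part of these shifts in the results below was not tested. The median log2 fold change of all tested genes in NOD was 0.12, and the changes below are to be read relative to it. After rescaling the libraries by the median of their gene ratios this median was -0.01, a shift of 0.14.

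In NOD BMDMs, IL-4 raised 12 of 18 tested genes of alternative activation and lowered 20 of 26 inflammatory and acute-phase genes at an adjusted p below 0.05. Members of these and the other gene lists were chosen with earlier results of these data known. Counts over a list therefore describe it and do not test it. Chemokines were called in both directions, among them Ccl8 upward and Cxcl1 and Cxcl2 downward. In all, 87 genes were induced (0.731% of those tested) and 55 were repressed (0.462%). Of the 142 called genes, 61.3% were induced, whereas after median-ratio rescaling 62 genes were induced and 88 repressed, so that 41.3% were induced. The direction of the balance therefore depended on the scaling. All 62 and all of the original 55 were called in the same direction in both scalings. The 87 induced genes had a median log2 fold change of 1.28 and 12 of them rose more than 4-fold. The repressed genes had a median of -1.43 and 5 of them fell more than 4-fold. In 134 of the 142 called genes the basal and the IL-4 libraries did not overlap, against 42.8% of all tested genes. The other 8 were genes of under 200 bases. The call itself favors separate groups, so this share describes the called genes and gives them no further support. With a pseudocount of 5 TPM in place of 1, 28 genes were induced and 29 repressed, and with 0.1 TPM 225 were induced and 121 repressed. Of the 81 called genes among those named by the rule, 40 lost the call with 5 TPM. They include Mrc1 (0.84), Pparg (0.92), Ccl12 (0.97), Ccl22 (0.83), Cish (0.53), Fpr1 (-0.80), Ptgs1 (0.51), Ear6 (0.80), Hdc (0.54), Antxr1 (-0.79), Chil1 (-0.97) and Tm4sf1 (-0.88), given as log2 fold changes at that pseudocount.

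**Figure D1:**
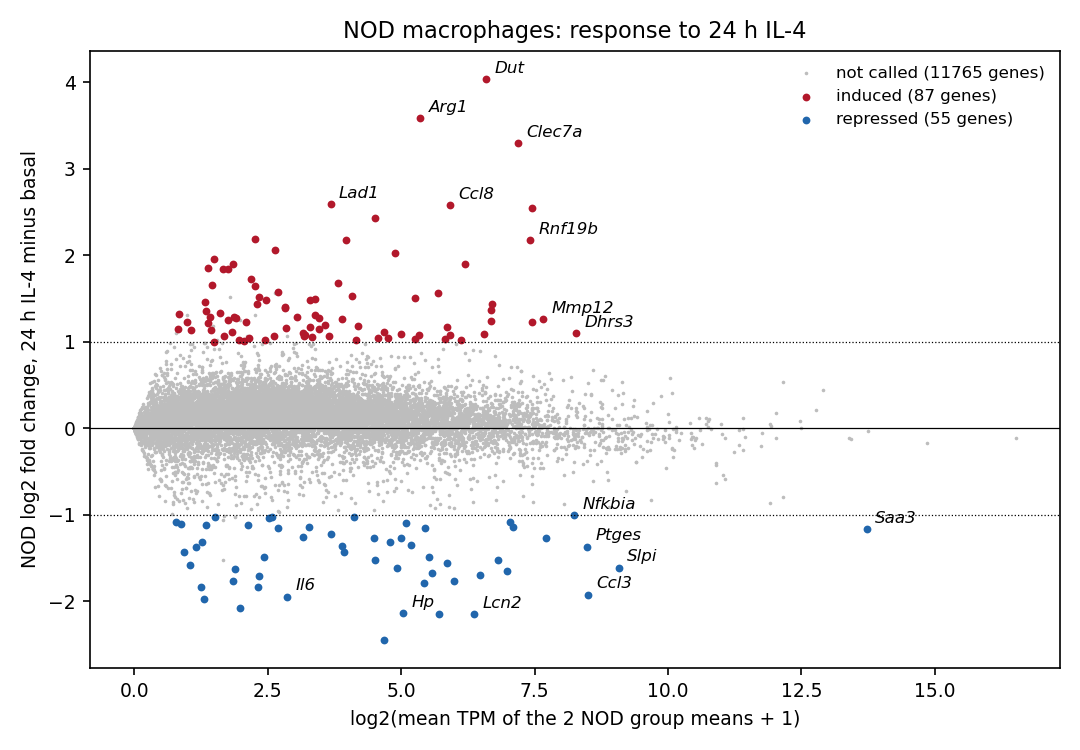
Each point is 1 of the 11907 tested genes in NOD BMDMs, with its level on the x axis (log2 of the mean TPM of both groups + 1) and its log2 fold change (24 hours of IL-4 minus basal) on the y axis. Red points are the 87 induced and blue points the 55 repressed genes, dotted lines mark 2-fold changes, and Dut (4.04) lies at the top of the rises while Saa3 is the most abundant called gene.

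Most tested genes of the alternative activation list rose. Of 21 listed genes 18 were tested. Of these, 4 (Arg1, Mrc1, Clec7a and Clec10a) were induced, beside 0.731% of all tested genes, and none was repressed. The median log2 fold change was 0.54, above the 0.12 of all genes. A further 8 rose at an adjusted p below 0.05 by less than 2-fold, so that 12 of 18 rose in all, where 28.2% of tested genes did. The list was drawn up with earlier results of these data known, so this share describes it and does not test it. Arg1, which splits arginine into ornithine and urea, was measured at 6.21, 7.54 and 3.02 TPM in basal libraries 1, 2 and 3 and at 78.4, 68.2 and 77.2 TPM after IL-4. All 3 IL-4 libraries stood far above all basal ones (log2 fold change 3.59, SE 0.16 and limma adjusted p = 1.2e-14). Mrc1, the macrophage mannose receptor, was at 3.87, 3.87 and 3.51 TPM and then at 11.3, 9.02 and 11.7 TPM, with no overlap (log2 fold change 1.29, SE 0.09 and limma adjusted p = 2.8e-11). Chil3, a secreted chitinase-like protein, had a log2 fold change of 0.99 (adjusted p = 0.0013 from limma), just under the threshold of the call. Its levels were 2.92, 3.10 and 2.64 TPM before and 7.91, 5.76 and 6.57 TPM after IL-4. Retnla, a classical marker of alternative activation in mice, was listed at 0 in all 6 NOD libraries.

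Clec7a and Clec10a were the lectins with the largest rises. Clec7a encodes dectin-1, the receptor for fungal beta-glucan, and was at 25.7, 25.3 and 26.9 TPM in basal and at 275.6, 235.9 and 283.9 TPM in IL-4–treated libraries. This was a rise of every library (log2 fold change 3.30, SE 0.06 and limma adjusted p = 2.2e-22). Clec10a, a galactose-binding lectin, was at 0.285, 1.19 and 0.556 TPM in basal libraries and at 8.13, 3.62 and 8.83 TPM after IL-4, so its second IL-4 library was the lowest of the group but still above the basal range (log2 fold change 2.19, adjusted p = 1.3e-09 from limma). With Mrc1, 3 of the 21 tested C-type lectins were induced, beside 0.731% of all tested genes. None was repressed, and the median of the list was 0.00. In the other direction without a call stood Clec4n, which encodes dectin-2, at -0.85 (adjusted p = 1.5e-11 from limma), and Clec4e, which encodes the mycobacterial sensor Mincle, at -0.40 (adjusted p = 1.6e-05 from limma).

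The largest rise of all belonged to Dut, which encodes the enzyme that removes dUTP from the nucleotide pool. It was at 9.96, 10.6 and 9.43 TPM in basal libraries and at 170.5, 190.5 and 179.9 TPM after IL-4, with the groups far apart (log2 fold change 4.04, SE 0.08 and limma adjusted p = 4.4e-22). Rnf19b, an E3 ubiquitin ligase, went from 60.1, 63.7 and 58.2 TPM to 273.3, 265.7 and 294.3 TPM (log2 fold change 2.18, adjusted p = 2.2e-22 from limma). Lad1, which encodes the anchoring filament protein ladinin, went from 2.59, 2.58 and 2.74 TPM to 20.9, 20.0 and 21.96 TPM (log2 fold change 2.59, adjusted p = 3.1e-15 from limma). In none of these genes did a basal library reach the IL-4 range, which the rule for the largest rises required. Among the other 12 largest rises were the predicted gene Gm15056 (2.55), the glutathione transferase gene Gsta2 (2.43), the prothrombinase gene Fgl2 (2.18), the serine protease inhibitor gene Serpina3h (2.07) and the tight junction gene Cldn11 (2.03), given as log2 fold changes. Gsta2 has a near-identical neighbor, Gm3776, which fell by 1.02 on the log2 scale (and by 0.97, 0.92 and 0.82 without basal replicate 1, basal replicate 3 and IL-4 replicate 1, below the threshold), and Serpina3h belongs to a cluster of close copies, so reads may have been divided between copies and these values are uncertain.

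**Figure D2:**
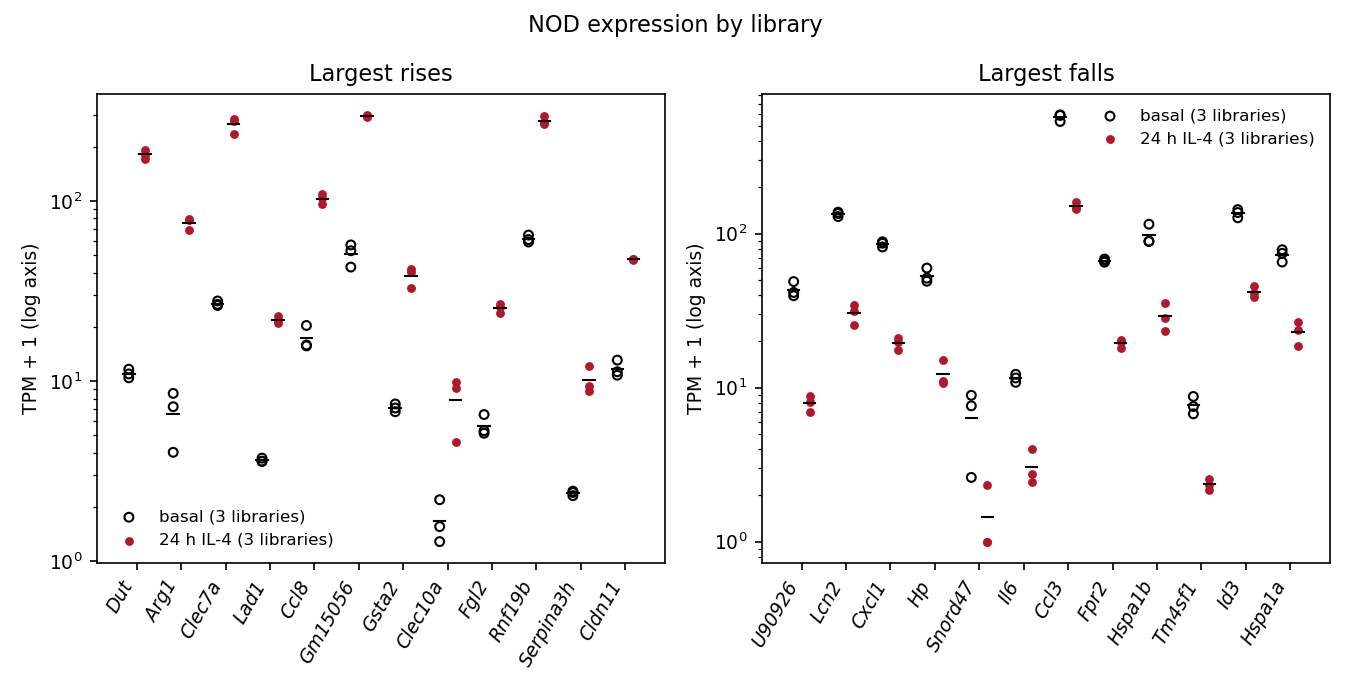
TPM + 1 on a log axis in each of the 6 NOD libraries for the 12 largest rises (left) and the 12 largest falls (right) among called genes with at least 5 TPM in a group mean and no overlap of libraries. Open circles are basal libraries, red points libraries after 24 hours of IL-4 and bars the group means, and for every gene shown the groups are separate.

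Inflammatory genes formed the list with the most repressed members. Of 29 listed inflammatory mediators, formyl peptide receptors and acute-phase genes, 26 were tested, 11 were repressed and 1, the cyclooxygenase gene Ptgs1, was induced (1.12). Over all tested genes 0.462% were repressed and 0.731% induced. The median log2 fold change of the list was -0.70, and 20 of the 26 fell at an adjusted p below 0.05, where 6.07% of tested genes did. This list too was drawn up with earlier results known, so the share is a description and not a test. After median-ratio rescaling the same numbers, 11 and 1, were called and the median was -0.87. Il6, a cytokine of the acute-phase response, was at 11.2, 9.83 and 10.6 TPM in basal libraries and at 1.74, 3.01 and 1.43 TPM after IL-4 (log2 fold change -1.95, SE 0.16 and limma adjusted p = 1.1e-09). Tnf was at 85.6, 81.6 and 91.5 TPM and then at 29.5, 27.8 and 28.3 TPM (log2 fold change -1.56, adjusted p = 4.7e-10 from limma). Every basal library of both genes lay above every IL-4 library. Il1b, the precursor of interleukin-1 beta, was at 43.5, 38.0 and 50.9 TPM and then at 18.7, 16.8 and 17.6 TPM (log2 fold change -1.26, adjusted p = 4.5e-10 from limma). Nlrp3, the sensor of the inflammasome that processes it, had a log2 fold change of -1.03, and of -0.94 without IL-4 replicate 2 and -0.99 without basal replicate 2, which ended the call.

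Acute-phase and antimicrobial genes were among the most abundant transcripts that changed. Saa3, an acute-phase serum amyloid protein, was at 18397, 18359 and 19452 TPM in basal libraries and at 8688, 8426 and 7950 TPM after IL-4 (log2 fold change -1.17, SE 0.05 and limma adjusted p = 6.4e-15). The basal libraries thus all lay above the IL-4 ones.

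Lcn2, which withholds iron from bacteria, went from 134.2, 128.2 and 137.0 TPM to 33.3, 24.5 and 30.5 TPM (log2 fold change -2.15, adjusted p = 3.2e-14 from limma). Slpi, a secreted inhibitor of leukocyte proteases, went from 773.2, 802.0 and 866.9 TPM to 255.6, 269.4 and 272.2 TPM (log2 fold change -1.61, adjusted p = 1.8e-16 from limma). The hemoglobin scavenger Hp had a log2 fold change of -2.13, and the formyl peptide receptors Fpr2 and Fpr1 of -1.78 and -1.48. Ptges, which makes prostaglandin E2, was at 495.5, 509.6 and 533.8 TPM and then at 204.2, 196.9 and 193.1 TPM (log2 fold change -1.37, adjusted p = 1.2e-14 from limma). No library of these genes crossed between the groups.

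Chemokines moved in both directions. Of the 23 tested, 3 were induced and 5 were repressed, beside 0.731% and 0.462% of all tested genes, and the median was 0.15. The monocyte-attracting Ccl8 rose from 14.9, 19.4 and 14.7 TPM to 108.3, 102.3 and 95.5 TPM (log2 fold change 2.58, SE 0.13 and limma adjusted p = 8.3e-14), and Ccl12 and Ccl22 had log2 fold changes of 1.26 and 1.64. Cxcl1 and Cxcl2, which attract neutrophils, moved the opposite way. Cxcl1 was at 87.6, 81.1 and 85.7 TPM in basal libraries and at 16.4, 18.8 and 20.0 TPM after IL-4 (log2 fold change -2.15, SE 0.16 and limma adjusted p = 2.9e-10), and Cxcl2 at 199.1, 178.4 and 196.0 TPM and then at 60.4, 59.1 and 60.8 TPM (log2 fold change -1.65, adjusted p = 4.5e-14 from limma). Neither gene had overlapping groups. The interferon-inducible Cxcl10 went from 172.4, 159.1 and 169.0 TPM to 60.7, 59.1 and 53.2 TPM (log2 fold change -1.52, adjusted p = 2.2e-10 from limma). The most abundant chemokine, Ccl5, fell from a mean of 5807 TPM to 3364 TPM without passing 2-fold (-0.79, adjusted p = 2.7e-09 from limma).

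On chromosome 11 (mm10) neighboring Ccl genes went different ways. Ccl2 (82035577 to 82037452), Ccl7 (82045712 to 82047523), Ccl12 (82101845 to 82103399) and Ccl8 (82115185 to 82116799) had log2 fold changes of 0.98, 0.87, 1.26 and 2.58. Farther along the chromosome, Ccl5 (83525779 to 83530518), Ccl3 (83647843 to 83649378) and Ccl4 (83662584 to 83664683) had -0.79, -1.92 and -1.27, while Ccl9 and Ccl6, which lie between them, had 0.54 and 0.44. Ccl3 and Ccl4 encode the inflammatory chemokines MIP-1 alpha and beta. Ccl3 was at 585.6, 535.2 and 591.0 TPM in basal libraries and at 158.8, 143.9 and 146.6 TPM after IL-4, and Ccl4 at 319.0, 259.5 and 307.7 TPM and then at 132.7, 121.8 and 111.2 TPM. Both were separate between the groups (adjusted p = 1.5e-15 and 2.3e-12 from limma).

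Of 26 tested genes of the IL-4 receptor and JAK-STAT6 pathway, 1 was induced and none repressed, with a median of 0.11. Over all tested genes 0.731% were induced, so 1 call says little about a list of this size. The induced gene was Cish, a feedback inhibitor of cytokine receptors, at 1.67, 1.97 and 2.04 TPM in basal libraries and at 4.97, 5.08 and 4.76 TPM after IL-4 (log2 fold change 1.04, adjusted p = 6.9e-09 from limma). The groups were separate, but the change was close to the threshold and was 0.98 without basal replicate 1 and 0.93 after median-ratio rescaling, so the call was lost in both. Il4ra, the receptor chain that binds the cytokine, was at 20.9, 23.3 and 23.7 TPM and then at 22.2, 21.6 and 23.3 TPM (log2 fold change -0.02, adjusted p = 0.88 from limma). Stat6 was at 21.6, 22.1 and 21.1 TPM and then at 29.4, 27.0 and 29.4 TPM (log2 fold change 0.39, adjusted p = 5.6e-05 from limma). The feedback inhibitor Socs1 had overlapping groups, at 3.57, 4.59 and 2.97 TPM before and 2.33, 3.75 and 3.15 TPM after IL-4 (log2 fold change -0.21, adjusted p = 0.44 from limma).

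Of 29 tested transcription factors linked to IL-4, 2 were induced, beside 0.731% of all tested genes, and none was repressed, with a median of 0.05. Pparg, a nuclear receptor for fatty acid derivatives, was at 5.52, 5.17 and 4.44 TPM in basal libraries and at 14.1, 13.7 and 13.9 TPM after IL-4 (log2 fold change 1.31, SE 0.08 and limma adjusted p = 3.3e-12). The groups were separate. Irf4, a factor needed for many alternative activation genes, had a log2 fold change of 0.68 (adjusted p = 8.5e-06 from limma). Myc went the other way, from 19.2, 19.5 and 21.97 TPM to 11.5, 10.5 and 11.3 TPM (log2 fold change -0.81, adjusted p = 7.1e-06 from limma). Egr2, an early growth response factor, showed no separation, at 25.2, 24.8 and 31.7 TPM before and 29.3, 26.8 and 30.4 TPM after IL-4 (log2 fold change 0.08, adjusted p = 0.50 from limma). Its sign turned after median-ratio rescaling (-0.10) and quantile normalization (-0.02).

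Among 14 tested matrix metalloproteinases and inhibitors, 4 were induced, beside 0.731% of all tested genes, and none was repressed. The elastase Mmp12 was at 118.7, 110.2 and 125.0 TPM in basal libraries and at 300.2, 242.5 and 312.3 TPM after IL-4 (log2 fold change 1.26, adjusted p = 2.2e-10 from limma), and the collagenase Mmp13 at 24.3, 24.6 and 26.4 TPM and then at 85.3, 68.2 and 76.2 TPM (log2 fold change 1.57, adjusted p = 1.0e-12 from limma). In each the second IL-4 library was the lowest of its group and still above all basal libraries. The other 2 were Adam8, a membrane protease (1.23), and the inhibitor Timp1 (1.06), whose change was 0.94 without basal replicate 1, 0.97 without IL-4 replicate 3 and 0.90 after median-ratio rescaling, each below the threshold. Igf1, the insulin-like growth factor, was at 18.6, 18.3 and 19.7 TPM and then at 57.1, 54.0 and 55.1 TPM (log2 fold change 1.51, adjusted p = 6.4e-15 from limma). It was the only 1 of 23 tested growth factor and repair genes to be called, beside 1.19% of all tested genes. The median of that list was 0.10.

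Genes of retinoid and oxysterol handling gave 3 induced genes of 11 tested, beside 0.731% of all tested genes. None was repressed, and the median was 0.02. Dhrs3, which turns retinal back into retinol, was at 190.7, 197.9 and 199.3 TPM in basal libraries and at 430.7, 404.7 and 426.1 TPM after IL-4 (log2 fold change 1.10, and 0.91 after median-ratio rescaling, below the threshold). Rbp4, the carrier of retinol in blood, went from at most 0.366 TPM to 3.34, 3.53 and 3.52 TPM (1.96). Ch25h, which makes 25-hydroxycholesterol, went from 0.393, 0.814 and 0.459 TPM to 2.60, 3.26 and 2.51 TPM (1.29). Rbp4 and Ch25h had basal levels under 1 TPM, where the size of a fold change depends on the pseudocount, and with a pseudocount of 5 TPM neither was called. Surface and fusion genes included Itgax, the CD11c integrin subunit, from 5.23, 5.69 and 6.25 TPM to 20.2, 19.7 and 21.6 TPM (log2 fold change 1.68, adjusted p = 1.1e-15 from limma). Atp6v0d2, a proton pump subunit required for the fusion of macrophages, had 1.24. It was the sole induced member of the fusion and lysosome lists (16 and 42 tested genes), beside 0.731% of all tested genes.

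Several lists held no called gene, but only 1.19% of all tested genes were called, so this says little about lists of these sizes. None of 76 tested oxidative phosphorylation subunits, 79 cytosolic ribosomal proteins, 51 cell cycle genes, 36 cholesterol genes, 33 lipid uptake and oxidation genes, 31 glycolysis genes, 27 antioxidant genes and 16 genes of MHC class II presentation was induced or repressed. Among the lipid genes 21 of 33 nonetheless rose at an adjusted p below 0.05, against 28.2% of all genes, with a median of 0.30, and after median-ratio rescaling 10 did. Cd36, a fatty acid transporter, was at 54.7, 55.2 and 56.1 TPM and then at 110.4, 94.7 and 108.0 TPM (log2 fold change 0.90, adjusted p = 1.0e-08 from limma). The ribosomal proteins had a median of -0.14, with 14 of 79 falling and none rising at that p, against 6.07% of all genes falling, and after median-ratio rescaling 39 fell with a median of -0.33. Of the antioxidant genes 11 of 27 fell and 3 rose at that p, with a median of -0.16, and after rescaling 17 fell and 2 were called repressed. Of the lysosomal genes 20 of 42 rose and 2 fell, and after rescaling 10 rose and 14 fell, so no direction can be given for them. The 45 interferon-stimulated genes had a median of -0.01 and 1 repressed member, beside 0.462% of all tested genes. That member, Cxcl10, also counts among the chemokines.

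**Figure D3:**
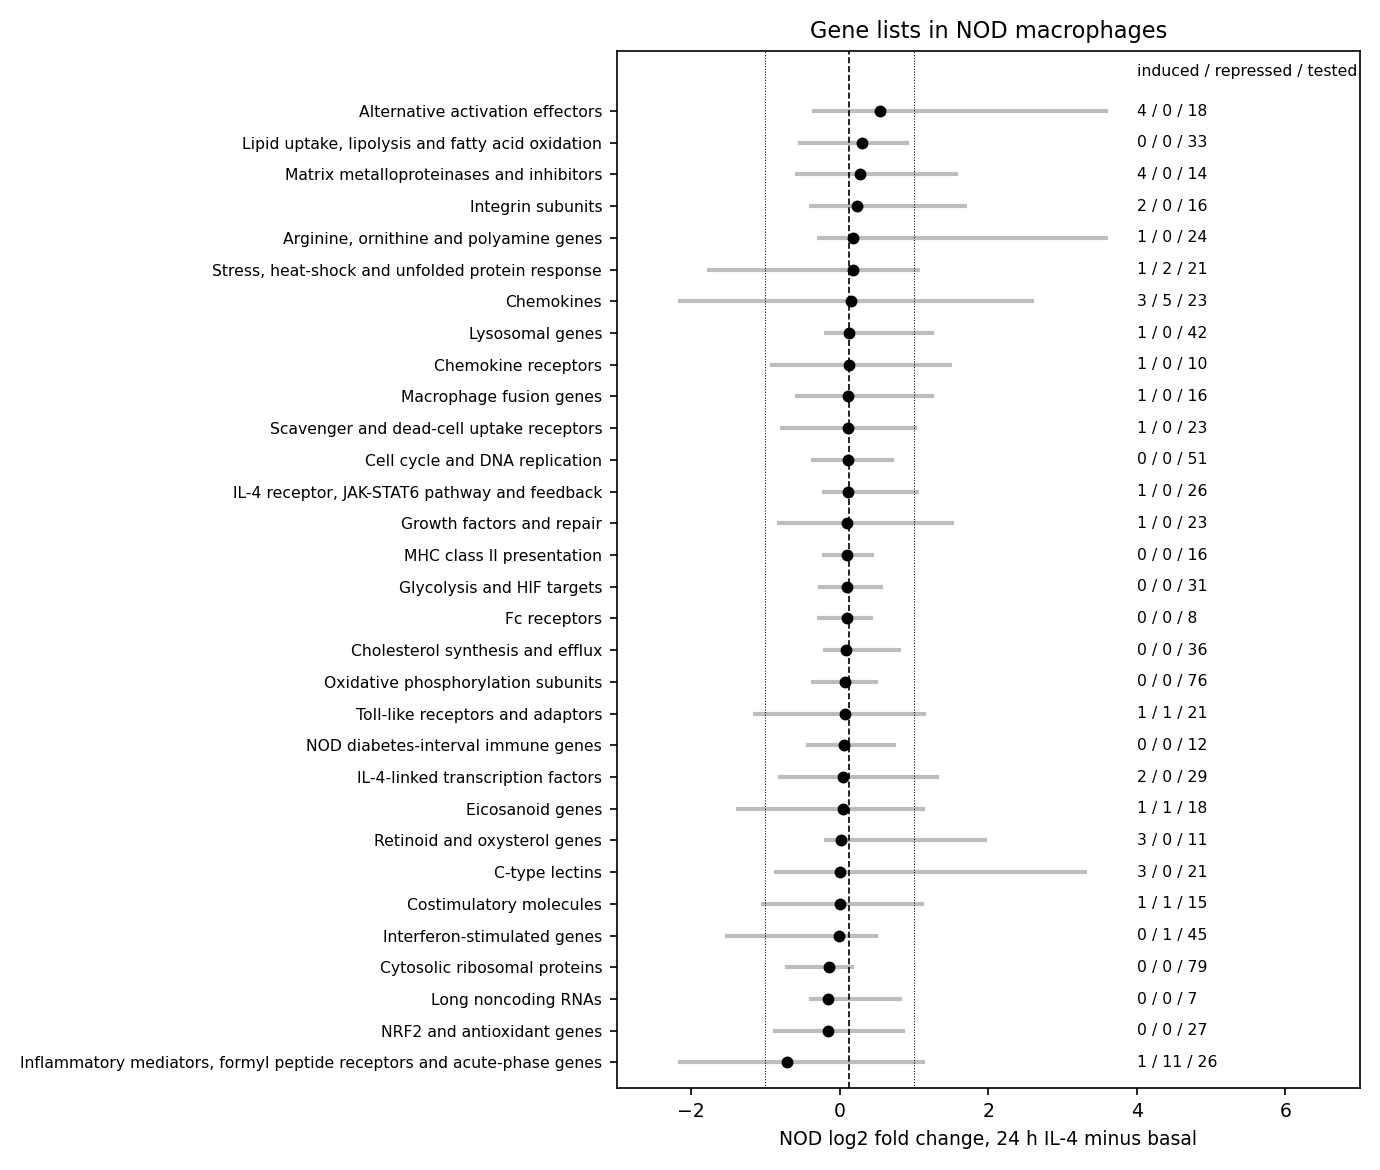
For each of 31 gene lists, the point is the median NOD log2 fold change of its tested members, the bar runs from the lowest to the highest member, and the numbers on the right are induced, repressed and tested genes. The dashed line is the median of all tested genes (0.12), dotted lines mark 2-fold changes, and the inflammatory list (median -0.70) stands lowest while the alternative activation list (0.54) stands highest.

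A further pair of falls came from the stress list. Of its 21 tested genes 2 were repressed and 1 was induced, beside 0.462% and 0.731% of all tested genes. Hspa1a and Hspa1b, the inducible HSP70 chaperones, are near-identical copies whose reads can be exchanged, so they are treated as a pair. Hspa1a was at 73.6, 64.5 and 77.7 TPM in basal libraries and at 22.7, 25.7 and 17.8 TPM after IL-4, and Hspa1b at 114.3, 88.4 and 88.1 TPM and then at 27.3, 34.7 and 22.3 TPM (log2 fold changes -1.67 and -1.76, adjusted p = 3.8e-08 and 1.5e-07 from limma). The basal libraries were all higher than the IL-4 libraries. The induced member, the endoplasmic reticulum chaperone gene Pdia4, had a log2 fold change of 1.05, and of 0.97 without basal replicate 1 and 0.87 after median-ratio rescaling, below the threshold. The stress-responsive transcription factor genes Ddit3 and Atf3 had 0.23 and 0.13. Other large falls were in Id3, an inhibitor of transcription factors (-1.70), U90926 (-2.44) and the membrane protein gene Tm4sf1 (-1.71). Snord47, a small nucleolar RNA gene within Gas5, was also among the 12 largest falls (-2.08), from 6.62, 7.92 and 1.61 TPM to 1.34, 0 and 0 TPM. Without basal replicate 2 its change was -1.75 with an adjusted p of 0.051 from limma, and the call was lost.

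Promoter sequences are shown for genes that carry both directions of the response and hold a match to a motif of the corresponding factor. They are RefSeq sequences of GRCm38.p6 (mm10), the reference strain and not NOD, from 250 bases before to 50 bases after the gene start, read 5′ to 3′ on the gene's strand. The letters searched on both strands were TTC and GAA with 4 bases of any kind between them, a form bound by STAT6, and GGG and TTCC with 3 bases of any kind between them, a form bound by NF-kB. Matches of a motif that start at different bases were counted separately, even where they overlap on opposite strands. A match is a description of letters and not a site of binding. Capitals mark the matches, and overlapping matches run together. In Cxcl1 the matches that begin 71 and 70 bases before the start are the same stretch read on opposite strands. The matches at 97 and 96 bases in Cxcl2 are likewise the same stretch. In Rbp4 and Itgax the RefSeq start lies upstream of the start given in the expression table. The first 3 genes were induced and hold the STAT6 form, which began 131 bases before the start in Clec7a (chr6:129472730-129473029, minus strand), 120 in Rbp4 (chr19:38125272-38125571, minus strand) and 127 in Itgax (chr7:128129300-128129599, plus strand). The last 4 were repressed and hold the NF-kB form, with 3 matches each in Cxcl1 (chr5:90890995-90891294, plus strand) and Cxcl2 (chr5:90903649-90903948, plus strand) and 1 each in Il6 (chr5:30012864-30013163, plus strand) and Nfkbia (chr12:55492598-55492897, minus strand).
Clec7a: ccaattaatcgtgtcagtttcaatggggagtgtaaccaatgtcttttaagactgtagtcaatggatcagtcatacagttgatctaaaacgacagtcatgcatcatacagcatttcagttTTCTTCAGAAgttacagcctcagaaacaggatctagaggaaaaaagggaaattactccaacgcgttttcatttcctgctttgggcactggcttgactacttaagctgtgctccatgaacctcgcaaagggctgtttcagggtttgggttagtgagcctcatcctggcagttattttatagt
Rbp4: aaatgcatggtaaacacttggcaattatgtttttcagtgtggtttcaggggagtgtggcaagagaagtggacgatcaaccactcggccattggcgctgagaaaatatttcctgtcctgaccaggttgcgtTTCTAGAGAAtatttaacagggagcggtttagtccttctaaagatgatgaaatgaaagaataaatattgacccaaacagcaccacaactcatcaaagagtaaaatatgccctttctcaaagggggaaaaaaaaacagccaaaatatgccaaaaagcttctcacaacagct
Itgax: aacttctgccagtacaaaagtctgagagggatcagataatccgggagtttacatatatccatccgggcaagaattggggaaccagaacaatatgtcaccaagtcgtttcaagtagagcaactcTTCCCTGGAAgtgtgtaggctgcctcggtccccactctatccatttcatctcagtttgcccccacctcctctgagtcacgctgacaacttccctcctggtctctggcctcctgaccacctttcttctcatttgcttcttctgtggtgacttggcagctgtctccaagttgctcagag
Cxcl1: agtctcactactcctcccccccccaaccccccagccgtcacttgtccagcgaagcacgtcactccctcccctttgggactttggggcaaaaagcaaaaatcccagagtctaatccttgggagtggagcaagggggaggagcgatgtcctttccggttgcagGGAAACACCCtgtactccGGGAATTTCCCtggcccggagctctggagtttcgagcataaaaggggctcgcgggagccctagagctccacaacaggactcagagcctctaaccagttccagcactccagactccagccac
Cxcl2: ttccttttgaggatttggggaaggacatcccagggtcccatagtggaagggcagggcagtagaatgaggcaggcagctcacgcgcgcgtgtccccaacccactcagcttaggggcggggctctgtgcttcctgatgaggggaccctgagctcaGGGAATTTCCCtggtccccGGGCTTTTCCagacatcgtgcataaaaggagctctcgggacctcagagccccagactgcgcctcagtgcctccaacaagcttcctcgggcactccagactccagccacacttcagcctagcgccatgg
Il6: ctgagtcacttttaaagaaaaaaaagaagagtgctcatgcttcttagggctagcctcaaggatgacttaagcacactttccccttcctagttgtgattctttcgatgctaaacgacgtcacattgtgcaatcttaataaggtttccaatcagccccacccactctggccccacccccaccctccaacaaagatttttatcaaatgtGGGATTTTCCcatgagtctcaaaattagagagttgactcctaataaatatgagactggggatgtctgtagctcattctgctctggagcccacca
Nfkbia: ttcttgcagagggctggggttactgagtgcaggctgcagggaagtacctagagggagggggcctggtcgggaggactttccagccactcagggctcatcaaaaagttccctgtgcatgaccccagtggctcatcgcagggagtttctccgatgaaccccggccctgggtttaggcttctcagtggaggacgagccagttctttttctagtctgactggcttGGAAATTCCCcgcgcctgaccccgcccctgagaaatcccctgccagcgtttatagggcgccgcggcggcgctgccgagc

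Promoters were at hand for 58 of the 87 induced and 32 of the 55 repressed genes, and for 9048 of all tested genes. The STAT6 form was found in 8 of the 58 induced genes (13.8%), in 3 of the 32 repressed genes (9.38%) and in 6.56% of all tested genes. The NF-kB form was found in 8 of the 32 repressed genes (25%), in 6 of the 58 induced genes (10.3%) and in 7.6% of all. The 8 were Cxcl1, Cxcl2, Cxcl10, Il6, Nfkbia, Tlr2, Tm4sf1 and Gm3776, the last with uncertain values as said above. No test was made of these shares. Nfkbia, the inhibitor that NF-kB itself induces, was at 413.0, 382.4 and 413.4 TPM in basal and at 205.0, 209.2 and 188.3 TPM in IL-4–treated libraries, without overlap (log2 fold change -1.0015, adjusted p = 4.5e-13 from limma). Its call was lost under 5 of 15 alternatives. These were without basal replicate 1 or 3 (-0.98 in each), without IL-4 replicate 3 (-0.96), with quantile normalization (-0.89) and with a pseudocount of 5 TPM (-0.99).

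The NOD response was set beside that of the other strains to find where it differed. The genes induced in all 4 other strains numbered 53, and 30 of them (56.6%) were also called induced in NOD, where the background was 0.731% of tested genes. Of the 53, 52 had a log2 fold change above 0 in NOD and 50 rose at an adjusted p below 0.05. Their median log2 fold change in NOD was 1.06, against 2.49 in C57, 1.76 in BALB, 1.87 in PWK and 2.51 in SPRET, which were the strains that chose the genes. To read a strain that did not choose them, genes induced in 3 of the other strains were taken and looked up in the strain left out and in NOD. The share called was 96.4% in C57 and 56.4% in NOD (55 genes), 69.7% in BALB and 47.4% in NOD (76 genes), 77.9% in PWK and 48.5% in NOD (68 genes), and 71.6% in SPRET and 59.5% in NOD (74 genes). The share was thus lower in NOD each time. No test was made over these lists, which share most of their genes.

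**Figure D4:**
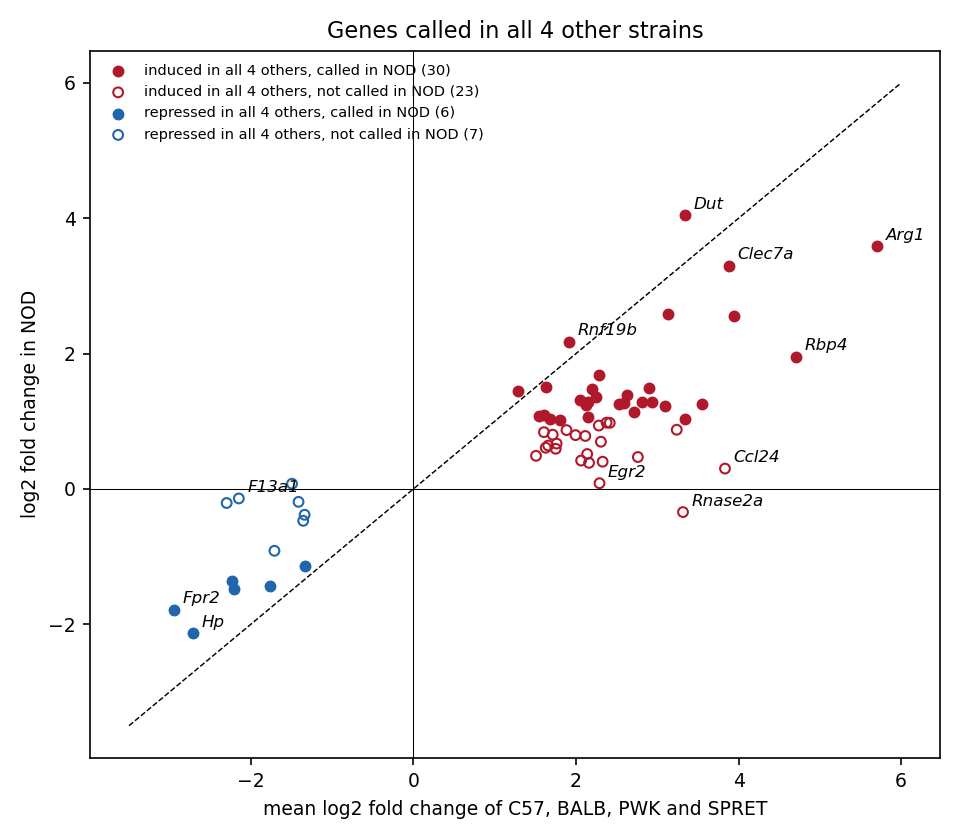
The mean log2 fold change of C57, BALB, PWK and SPRET (x axis) is plotted against that of NOD (y axis) for the 53 genes induced (red) and the 13 genes repressed (blue) in all 4 of these strains. Filled points were called in NOD, open points were not, and most points lie nearer to 0 in NOD than the dashed line of equal change, with Dut above it.

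By the test of the difference itself, the NOD response against the mean of the 4 other responses, 48 of the 53 genes had a smaller response in NOD and 3 a larger one at an adjusted p below 0.05, where 6.53% and 21.3% of all tested genes did. These genes were selected for a rise in the other strains, which enter the test, so the counts describe the list and do not test it. Arg1 rose less in NOD than the other strains' mean by 2.12 (SE 0.18 and limma adjusted p = 3.2e-09), and Cish by 2.30 (adjusted p = 5.0e-14) and Ccl7 by 2.37 (adjusted p = 1.7e-14). Ccl7, at 51.5, 51.2 and 49.0 TPM and then at 102.6, 88.2 and 90.2 TPM, was separate between the groups but short of 2-fold in NOD (0.87). Dut was one of the exceptions. Its response exceeded the mean of the others by 0.70 (SE 0.09 and limma adjusted p = 3.3e-06), although it was larger still in C57 (4.28) and PWK (4.88).

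The 13 genes repressed in all 4 other strains had a median log2 fold change of -0.92 in NOD, against -1.73 in C57, -1.71 in BALB, -1.37 in PWK and -2.07 in SPRET. Of these 13, 12 were below 0 in NOD, 9 fell at an adjusted p below 0.05 and 6 (46.2%) were called repressed, beside 0.462% of tested genes. Cx3cr1, Klra2 and F13a1 had NOD basal means of 0.485, 0.542 and 0.745 TPM. From below 1 TPM a fall on the log2(TPM + 1) scale cannot reach 2-fold, so these genes could not be called. They also enter the NOD median. With a pseudocount of 5 TPM, 5 genes were repressed in all 4 others and 5 of 5 were called in NOD. Of the 23 shared induced genes not called in NOD, 20 rose there at an adjusted p below 0.05. Their NOD basal level was more than 2-fold above the mean of the other strains in 5, more than 2-fold below it in 5 and neither in 13, and the same basal libraries enter the response. A missing call does not always mean that TPM failed to double. NOD mean TPM rose over 2-fold in Cdh1 (13.5), Pdlim1 (8.91), Plekhf1 (7.89), Abcd2 (4.50), Ccl24 (3.72), Ltb4r1 (3.69), Tuba8 (3.57) and Cyp1b1 (2.71). All of these had NOD basal means of at most 0.293 TPM, where the pseudocount shrinks a fold change. Tmem26 (2.15) also passed 2-fold, and in the rest the ratio was at most 1.99.

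Across all tested genes the NOD response was more than 2-fold smaller than the mean of the 4 others in 89 genes (0.747%) and more than 2-fold larger in 31 (0.26%). After median-ratio rescaling these were 109 and 20, and the median difference over all genes went from 0.11 to -0.02. Without PWK among the others, 60 responses were larger. Smaller here means lower in value, so that a gene that fell only in NOD is counted too. The feedback inhibitor Socs1, which did not separate in NOD, had log2 fold changes of 2.91 in C57, 1.18 in BALB, 0.95 in PWK and 5.70 in SPRET, and NOD was lower than their mean by 2.90 (NOD minus others -2.90, adjusted p = 6.7e-10 from limma). Ccl24, an eosinophil-attracting chemokine, was at 0.082, 0.197 and 0 TPM in NOD basal and at 0.2, 0.38 and 0.459 TPM in NOD IL-4 libraries. After IL-4 the other strains had means of 28.9, 9.37, 2.08 and 98.05 TPM in C57, BALB, PWK and SPRET (NOD minus others -3.53, adjusted p = 6.4e-14 from limma). The NOD level thus stayed below 1 TPM.

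Cxcl1 and Cxcl2 fell in NOD and in no other strain by the call. The mean of Cxcl1 went from 84.8 to 18.4 TPM in NOD and from 10.6 to 55.8 TPM in SPRET, where it rose, while C57, BALB and PWK stayed under 9 TPM in both conditions (NOD minus others -2.58, SE 0.18 and limma adjusted p = 1.6e-10). For Cxcl2 the difference was -2.57 (adjusted p = 2.3e-16 from limma). Ccl4 had a NOD basal mean of 295.4 TPM, whereas the basal means of the others lay between 3.27 TPM in SPRET and 46.5 TPM in BALB (NOD minus others -1.49, adjusted p = 1.5e-12 from limma). Hspa1a went from 71.9 to 22 TPM in NOD, with basal means between 0.281 and 7.46 TPM elsewhere. In these genes the NOD level after IL-4 remained above the basal means of C57, BALB and SPRET. Of the 55 repressed genes 32 had a NOD basal level more than 2-fold above the mean of the other strains, where 5.91% of tested genes did, and 5 one more than 2-fold below it (10.5%). The same 3 basal NOD libraries enter both the fall and the basal level, so nothing is read from that share.

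On the log2(TPM + 1) scale, larger responses in NOD included Lad1 and Serpina3h. Lad1 reached a mean of 20.9 TPM after IL-4 in NOD and at most 3.93 TPM, in BALB, among the others (NOD minus others 1.73, SE 0.12 and limma adjusted p = 1.1e-10). For Serpina3h the NOD mean after IL-4 was 9.1 TPM and that of BALB 2.31 TPM (NOD minus others 1.58, adjusted p = 1.1e-10 from limma). Basal means of both genes were below 1 TPM in all other strains, where the pseudocount shrinks a fold change. Lad1 started from 2.64 TPM in NOD and 0.318 TPM in BALB. In C57 it went from 0.116 to 1.37 TPM, in PWK from 0.14 to 0.456 and in SPRET from 0.0227 to 0.11. Serpina3h started from 1.39 TPM in NOD and 0.295 TPM in BALB. A larger ratio of TPM in NOD than in every other strain is thus not shown. Cx3cr1, the fractalkine receptor, gave a positive difference of another kind, since it fell in the other strains, from basal means between 2.44 and 15.3 TPM, and was at 0.339, 0.428 and 0.688 TPM in basal NOD libraries already (NOD minus others 2.09, adjusted p = 1.7e-13 from limma).

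**Figure D5:**
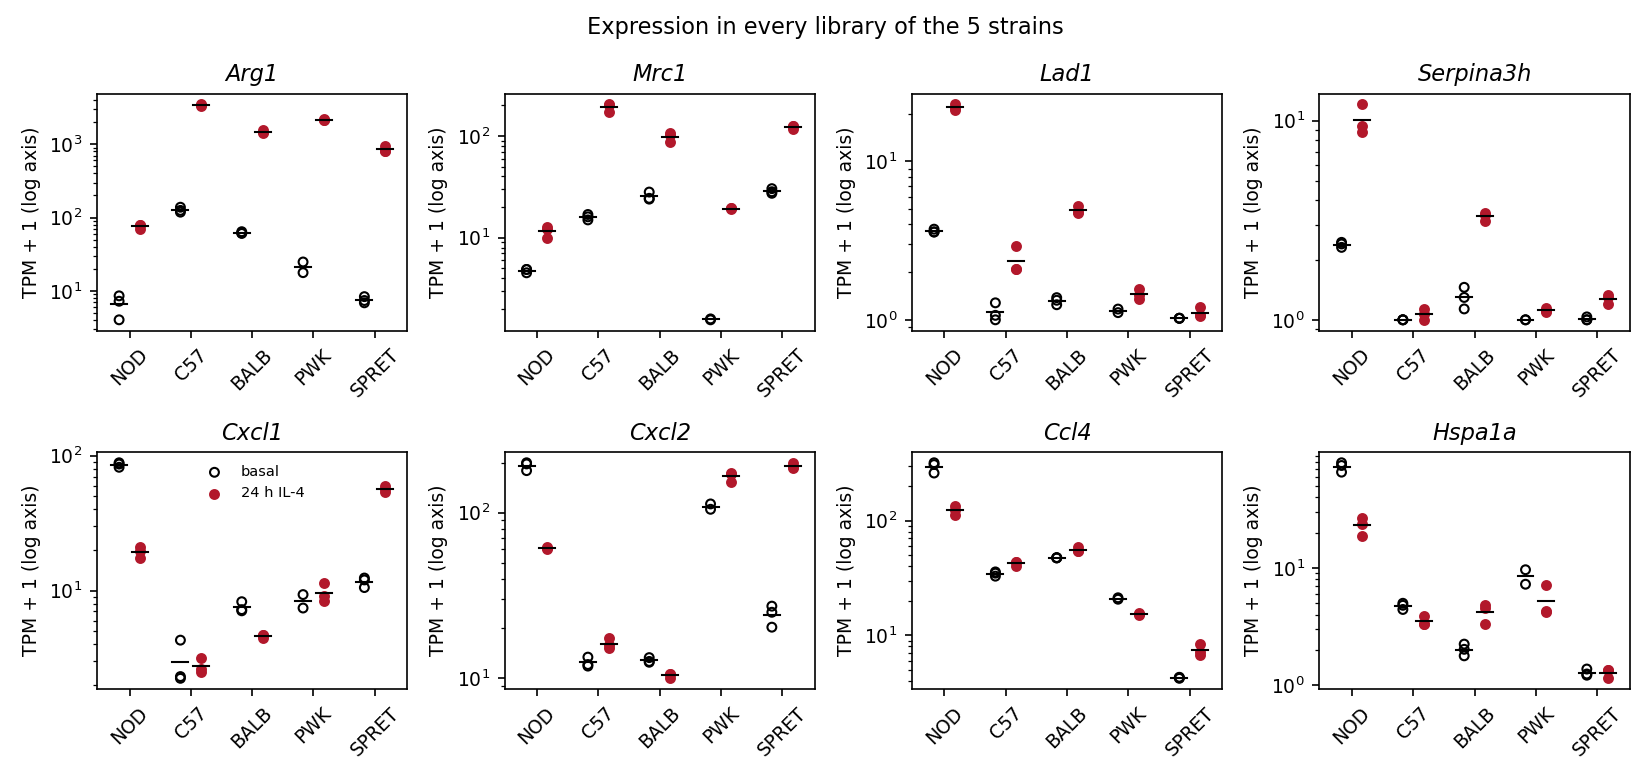
TPM + 1 on log axes in all 29 libraries for 8 genes, with open circles for basal libraries, red points for 24 hours of IL-4 and lines for group means. Arg1 and Mrc1 rose in NOD to levels below those of the other strains after IL-4, Lad1 and Serpina3h were highest in NOD, and Cxcl1, Cxcl2, Ccl4 and Hspa1a started from a higher NOD basal level and fell.

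Of the 87 induced genes 13 were called induced in no other strain, and 10 of those also differed from the mean of the others by the interaction test. Of these 10, 5 were under 200 bases, and the rest were Ear6, Ear7, Hdc, Cd28 and Dck. Short of the call, 3 of these also rose in other strains at a limma adjusted p below 0.05. Hdc did in C57 (0.60), BALB (0.43) and SPRET (0.51), but not in PWK (0.15). Cd28 did in C57 (0.77), BALB (0.39) and PWK (0.72), but not in SPRET (0.005). Dck did in PWK (0.75) and SPRET (0.86), but not in C57 (-0.16) or BALB (0.03). Ear6 and Ear7, eosinophil-associated ribonucleases, overlap on chromosome 14 and share reads, so they count as 1 signal. Ear6 was at 0.15, 0.597 and 0.729 TPM in basal and 3.51, 3.68 and 6.87 TPM in IL-4 libraries (log2 fold change 1.90, adjusted p = 2.8e-10 from limma). Its groups were separate. Of the 7 eosinophil markers, Prg3, Epx, Il5ra and Ear1 were at 0 in all 6 libraries. Ccr3 was at 0 in basal libraries and at most 0.135 TPM after IL-4. The sum of the 7, led by Prg2, was at most 0.615 TPM in basal and 0.346 TPM in IL-4 libraries. The source of the Ear6 reads was not tested. Hdc makes histamine and is itself the leading mast cell and basophil marker above. It was at 0.844, 0.885 and 0.476 TPM and then at 3.48, 3.82 and 2.78 TPM (1.33). Elsewhere its means went from 0.0983 to 0.663 TPM in C57 and from 0.0643 to 0.441 in BALB. They went from 0.029 to 0.462 TPM in SPRET and from 0.0525 to 0.168 in PWK. At such levels the pseudocount of 1 TPM shrinks a fold change. The Hdc call in NOD alone thus does not show a larger ratio of TPM there than in every other strain. Of the 10 mast cell and basophil markers, Mcpt4, Fcer1a, Ms4a2 and Tpsb2 were at 0 in all 6 libraries. Cpa3 was at 0 in basal libraries and at most 0.205 TPM after IL-4, and Gata2 at most 0.157 and 0.106 TPM. Only Hdc was called among the 4 tested. The source of the Hdc reads was not tested. The T cell costimulatory receptor Cd28 had a log2 fold change of 1.02 and lost its call under 7 of 15 alternatives, with 0.93 after median-ratio rescaling, 0.88 after quantile normalization, and 0.99, 0.98, 0.94 and 0.91 without basal replicate 1, basal replicate 2, IL-4 replicate 1 and IL-4 replicate 3. The nucleoside kinase Dck had 1.03 and lost its call under 5 of 15, with 0.90 and 0.84 after these scalings, and 0.92 and 0.97 without basal replicate 1 and IL-4 replicate 3. The calls of Ear6, Ear7 and Hdc were lost with a pseudocount of 5 TPM.

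Of the 55 repressed genes 25 were called repressed in no other strain, and 20 of those differed from the others by the interaction test, 4 of them under 200 bases. Besides the chemokines and heat-shock genes above they included Chil1, a chitinase-like protein, at 44.3, 46.8 and 45.6 TPM in basal and 21, 21.3 and 20.2 TPM in IL-4 libraries (log2 fold change -1.09, adjusted p = 2.1e-06 from limma). Its adjusted p was 0.084 with a pseudocount of 0.1 TPM. Antxr1, an anthrax toxin receptor that binds collagen, was at 12.4, 12.9 and 11.6 TPM and then at 5.23, 4.87 and 4.95 TPM (-1.14), and Gadd45g, a stress-inducible growth arrest gene, at 191.5, 178.4 and 188.8 TPM and then at 83.9, 98.2 and 71.4 TPM (-1.14). The groups of all 3 were separate. Short of the call, Gadd45g also fell in C57 (-0.79) and SPRET (-0.83) at a limma adjusted p below 0.05. In BALB (-0.37) and PWK (-0.14) it did not pass, and its interaction had an adjusted p of 0.038 from limma. Antxr1 fell in C57 (-0.44) and BALB (-0.47) at that p, rose in PWK (1.03) and had 0.05 in SPRET. Chil1 fell in PWK (-0.49) and rose in C57 (0.39) at that p, with -0.07 in BALB and 0.02 in SPRET. Csf3, the granulocyte growth factor, was at 1.56, 1.06 and 1.9 TPM and then at 0.126, 0.12 and 0.217 TPM (-1.11, and -0.99 without basal replicate 3, below the threshold).

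Genes of under 200 bases, mostly precursors of microRNAs and small nucleolar RNAs, made up 294 of the tested and 19 of the called genes. All 19 overlap another listed gene, and so do other called genes, 49 in all. Among the longer ones are Mrc1 (with Mir511), Slpi (Mir7678), Adam8 (Mir7062), Nfkbia (Mir1198), Il1b (Il1bos), Cxcl10 (Art3), Fgl2 (Ccdc146) and Timp1 (Syn1). The labels and methods do not say how reads were assigned there or whether strand was used, so the values of these genes are uncertain to that extent. Mir877, for example, was at 0, 2.01 and 1.23 TPM in basal and 3.06, 7.75 and 1.75 TPM in IL-4 libraries, with overlapping groups (log2 fold change 1.29, adjusted p = 0.0097 from limma). It was no longer called without basal replicate 1 (0.83) or IL-4 replicate 2 (0.83). Without genes of this length 78 genes were induced and 45 repressed.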

How the data were processed

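Polyadenylated RNA of BMDM cultures was sequenced by the authors, mapped with STAR to strain genomes built from mm10 and counted with HOMER. The deposited values are TPM per gene, given for 24537 genes in 29 libraries, and whether counting used strand is not given in the sources used here. Another 30 columns hold the authors' own fold changes and p-values between conditions and strains, which were not used, nor were the 5 other tables. No column of sample values lacked a sample (0).

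A gene was kept if 2 or more libraries reached 1 TPM, and log2(TPM + 1) was fitted with limma 3.58.1 (R 4.3.3), with a mean for every strain and treatment, all 29 libraries sharing 1 estimate of the spread (19 residual degrees of freedom, 2 libraries in basal PWK and 3 elsewhere), a trended prior and Benjamini-Hochberg adjustment over all genes. A call needed a fold above 2 and an adjusted p below 0.05. The fold on this scale understates the change of low genes. The script was tested on simulated data. TPM keeps no read counts, so the precision of a single value rests on the tags in a library (7.28 M to 14.25 M in NOD, 7.02 M to 22.49 M over all). Within a group the correlation of NOD libraries was at least 0.992, and no pair held identical values.

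The genes named are the 12 largest rises and falls with separate groups and at least 5 TPM, called or defining members of 31 gene lists, the 8 largest differences from the other strains in each direction, genes called in all 4 others but not in NOD, and genes called in NOD alone with an interaction. The members and lists were chosen with earlier results of these data known. Alternatives were other pseudocounts, filters, scalings and priors, a replicate block, fewer strains and each library left out. Same-numbered NOD libraries did not deviate together (correlations -0.075, -0.001 and -0.026), so the main fit did not pair them. With 3 libraries per group these correlations cannot exclude a shared mouse or batch. Promoters came from RefSeq. Figures were drawn with matplotlib 3.10.9. Results for some genes are not reported here.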

Additional observations from a re-analysis of the deposited data

Results flagged for a closer look

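The NOD response differed from the mean of the other 4 strains by more than 2-fold in 120 genes by limma's interaction test, 89 with a smaller and 31 with a larger value in NOD.

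Among genes with at least 5 TPM in a group, the 8 lowest differences (NOD minus others, log2) were in Rnase2a (-3.66), Ccl24 (-3.53), Socs1 (-2.90), Cxcl3 (-2.84), Rbp4 (-2.75), Snord47 (-2.70), Cxcl1 (-2.58) and Cxcl2 (-2.57). Rnase2a, a ribonuclease of the eosinophil-associated family with close copies, rose in the other strains by a mean of 3.32 and had -0.34 in NOD. Cxcl3, a neutrophil-attracting chemokine beside Cxcl1 and Cxcl2, had -0.76 in NOD and 5.38 in SPRET.

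The 8 highest were in Cx3cr1 (2.09), F13a1 (2.01), Lad1 (1.73), Serpina3h (1.58), Pilrb1 (1.57), Mir877 (1.43), Mir1957b (1.42) and Aif1 (1.32). Cx3cr1, F13a1, Pilrb1 and Aif1 fell in the other strains and had NOD changes of -0.21, -0.14, 0.08 and -0.04, none of which passed limma's test. Pilrb1 has a close copy, and Mir877 and Mir1957b lie within other listed genes.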

How the results depend on the processing

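The pseudocount moved the counts most. With 0.1 TPM, 225 genes were induced and 121 repressed, 128 NOD responses were larger and 157 smaller than the mean of the others, and 57 of 84 genes induced and 12 of 28 repressed in all 4 other strains were called in NOD, against 30 of 53 and 6 of 13 with 1 TPM. With 5 TPM these were 28, 29, 4, 45, 12 of 27 and 5 of 5. Median-ratio scaling gave 88 repressed genes and 20 larger responses, and leaving out PWK gave 60 larger ones. Without 1 NOD library the ranges were 80 to 100 induced, 49 to 58 repressed, 30 to 40 larger, 87 to 93 smaller, 28 to 31 shared induced and 6 to 6 shared repressed. With the replicate number as a block there were 89 induced and 55 repressed genes, 32 larger and 91 smaller responses, with 30 and 6 shared genes called. Leaving out genes of under 200 bases, chosen after seeing the data, gave 78, 45, 26 and 84.

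Of 114 named genes 81 were called, and 40 kept the call under every alternative run. The call was lost without 1 NOD library in 20 and under median-ratio scaling in 9. The sign turned for Pilrb1 (-0.067 with median-ratio scaling, -0.076 with quantile normalization, and from -0.13 to 0.19 on leaving out 1 library), Egr2 (-0.098 and -0.0225 with these scalings) and Aif1 (from -0.14 to 0.12 on leaving out 1 library, with 0.091 without basal replicate 1 and 0.12 without IL-4 replicate 3), none of them called. The cause was not tested. The 3 libraries of a group, and the lack of read counts, limit what low genes can show.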
